A study of Rattus norvegicus with 6 samples.

Results

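Rab GTPases other than the Rab3 and Rab27 families were followed in rat islet cells after knockdown of ci-Ins2, a circular RNA made from an intron of the Ins2 gene. The members were the genes whose name is Rab followed by a number and its subtype letter, with Rab3 and Rab27, the Rabs of the secretory granule, left out. This name rule found 50 genes of the 28656 gene names in the expression table and used no measured value. Of the 50 genes, 41 reached a relative abundance of 1 in at least 3 libraries and were tested, among 13927 gene names tested in all.

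Islets of male Wistar rats aged 12 weeks were dissociated into single cells and transfected with a gapmeR against ci-Ins2 or with a control gapmeR, and RNA was taken after 48 h of culture. Each group has 3 libraries, and by the study's reporting summary the cells of a replicate came from the same animal in both groups. A gapmeR is an antisense oligonucleotide with modified ends and a DNA core that lets RNase H cut the RNA it pairs with. The cells were all the cells of the islet and were not sorted, so in these bulk samples fewer cells of a type and less RNA per cell cannot be told apart.

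The oligonucleotides are shown because they are the only difference between the groups. Capitals mark the 6 bases that pair with the start of the rat Ins2 intron, and the other 10 bases were not checked against the intron here.

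ci-Ins2 gapmeR: GCTTACagacacatag

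control gapmeR: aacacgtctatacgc

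ci-Ins2 itself was not measured in these mRNA libraries, so they hold no check of its knockdown. By quantitative PCR in rat islet cells, the paper reports that this gapmeR lowered ci-Ins2 and left linear Ins2 unchanged. All values below are relative abundances, that is the deposited transcript abundances divided by 10, summed per gene and scaled between libraries by median-of-ratios size factors. They allow for transcript length, each library has the same total before scaling, and read depth is not known from them. The libraries listed 26127 to 26730 transcripts at values over 0. Genes were tested with limma on log2(abundance + 1), for ci-Ins2 minus control, and a gene passed at an adjusted p under 0.05. Such a log2 difference understates the change of genes with low values. The median log2 fold change of all genes tested was 0.0022. A fit with the animal as a further term is given beside the results whose call it changed.

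Rab GTPases are small switches that mark the identity of a membrane. With GTP bound they recruit effectors such as tethers and motor adaptors, and with GDP bound they are taken off the membrane by GDI. Guanine nucleotide exchange factors (GEFs) switch them on, GTPase-activating proteins (GAPs), most of them with a TBC domain, switch them off, and a lipid anchor added by a prenyltransferase holds them on the membrane. In endocrine cells Rab3 and Rab27 work on secretory granules, while the other Rabs serve transport from the endoplasmic reticulum through the Golgi, endocytosis, recycling, lysosomes, autophagy and cilia.

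The Rab genes of transport through the Golgi and to the lysosome had the highest levels. Rab1a, which acts between the endoplasmic reticulum and the Golgi, had 584, 604 and 555 units of relative abundance in the ci-Ins2 gapmeR libraries, against 573, 564 and 608 in the control gapmeR libraries. Rab7a, the Rab of late endosomes and lysosomes, had 576, 577 and 567 units after the ci-Ins2 gapmeR, against 577, 581 and 573 after the control gapmeR. The levels of these 2 genes overlapped with each other and between the groups.

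Rab6a, a Golgi Rab, had 206, 194 and 200 units in ci-Ins2 gapmeR cells, against 214, 208 and 214 in control gapmeR cells. Although every ci-Ins2 library lay below every control library, its log2 fold change of −0.09 did not pass (SE 0.044, adjusted p = 0.336 from limma). Together with Rab2a, these genes held 57.3% to 58.6% of the summed level of the 50 Rab genes in ci-Ins2 gapmeR libraries and 59.3% to 60.2% in control gapmeR libraries. The sum over the 50 genes was 0.261% to 0.272% of all abundance in ci-Ins2 gapmeR libraries and 0.249% to 0.264% in control gapmeR libraries, ranges that overlapped.

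Below Rab2a came genes with mean levels of 70.8 to 93.2 in control cells. Among these were Rab11b, of recycling endosomes, with a mean of 88.7 ± 3.01 units in ci-Ins2 gapmeR cells and 93.2 ± 1.26 in control gapmeR cells (SD, n = 3 each), and Rab24, a Rab linked to autophagy, with 82.9 ± 2.28 units in ci-Ins2 gapmeR cells and 82.1 ± 2.38 in control gapmeR cells (SD, n = 3 each). The early endosome gene Rab5c had 72.9 ± 1.999 units in ci-Ins2 gapmeR cells and 73.8 ± 2.30 in control gapmeR cells (SD, n = 3 each). Rab8a, of vesicles on the way from the Golgi to the cell surface, had 73.6 ± 4.29 units in ci-Ins2 gapmeR cells and 73.8 ± 3.61 in control gapmeR cells (SD, n = 3 each). These levels lay close together, and none of the 4 genes passed the test for a change. Rab14, which works between the Golgi and endosomes, had 76.4 ± 3.86 units in ci-Ins2 gapmeR cells and 72.0 ± 4.49 in control gapmeR cells (SD, n = 3 each). Rab5b, also of early endosomes, had 77.1 ± 1.02 units in ci-Ins2 gapmeR cells and 70.8 ± 2.56 in control gapmeR cells (SD, n = 3 each).

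In control cells 13 Rab genes had a mean of at least 50 units, 26 had at least 10, and 15 of those tested had under 10. With the 41 tested genes in order of their control mean, the control values of 23 of the 40 neighbouring pairs overlapped, so that their order was not set by these libraries. The other 17 pairs were apart, including Rab7a over Rab6a (2.72 times), Rab6a over Rab2a (1.13 times) and Rab2a over Rab11b (2.01 times). The median coefficient of variation over tested Rab genes was 5.05% in ci-Ins2 gapmeR cells and 4.89% in control gapmeR cells.

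**Figure D1:**
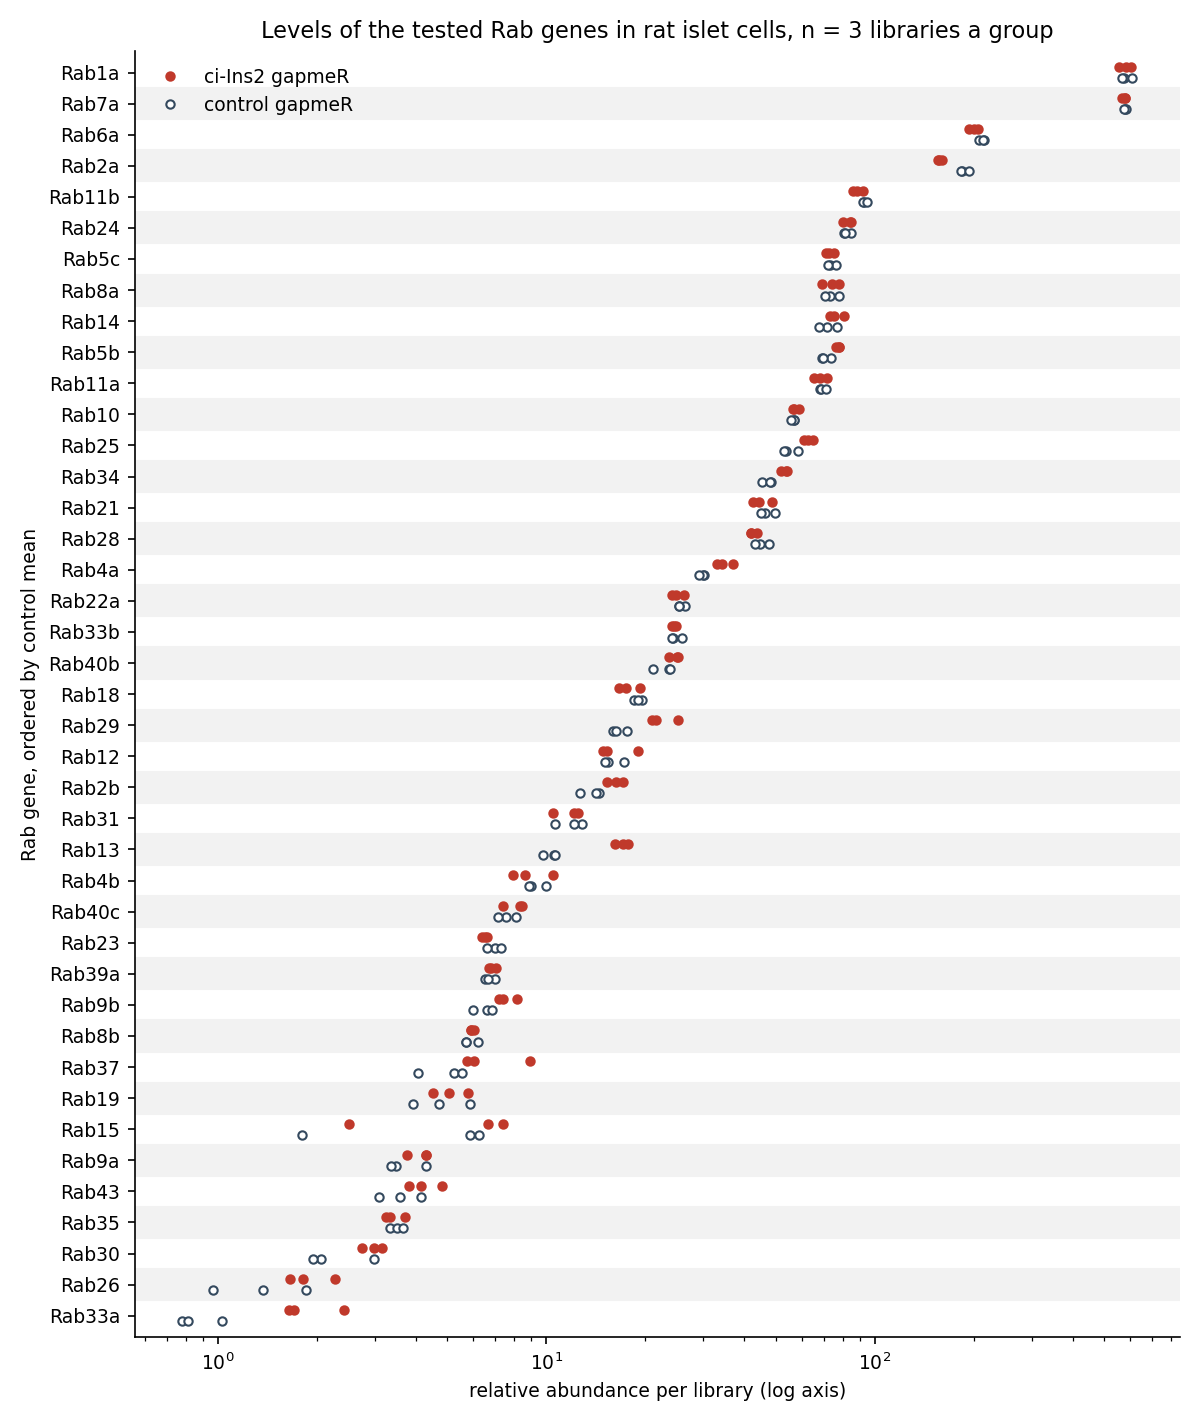
Relative abundance of the 41 tested Rab genes in each library, on a log axis, with genes ordered by their control mean. Filled points are the 3 ci-Ins2 gapmeR libraries and open points the 3 control gapmeR libraries. For most genes the points of both groups overlap, while the filled points of Rab13, Rab29 and Rab33a lie to the right of the open points and those of Rab2a lie to the left.

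The 9 members under the minimum had means of at most 0.733 units in ci-Ins2 gapmeR cells and at most 0.692 in control gapmeR cells. They were Rab20, Rab36, Rab6b, Rab38, Rab32, Rab7b, Rab42, Rab17 and Rab44, and they were not tested. Rab32 and Rab38 serve melanosomes and other lysosome-related organelles, Rab17 is an epithelial Rab, and Rab6b is the isoform of Rab6 best known from brain. Rab44 was listed at 0 in 5 of the 6 libraries. Other Rab names, such as Rab1b, Rab5a and Rab39b, were not among the gene names listed for the rat libraries, so they could not be analysed here under those names.

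After the ci-Ins2 gapmeR, Rab13, Rab29 and Rab33a rose, Rab2a fell and the other 37 tested Rab genes did not pass. The 1 gene that fell is 2.44% of the 41, beside 3.5% of all genes tested, and the 3 that rose are 7.32%, beside 1.01% of all genes tested. Rab33a, 1 of the 3, reached the minimum for testing only in the ci-Ins2 gapmeR libraries. With the animal as a term 1 Rab gene fell and 6 rose, or 2.44% and 14.6%, beside 10.3% of all genes that fell and 5.23% that rose in that fit. At an unadjusted p under 0.05, limma placed 1 Rab gene lower and 9 higher. Among all 13927 genes tested it placed 1618 lower and 1231 higher, the counts to set beside those at this threshold below. The median log2 fold change was 0.03 over the 41 Rab genes, with 24 values above 0 and 17 below. Since the members were chosen with earlier results known, these shares are a description.

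On the log2(abundance + 1) scale Rab13 had the largest rise of the tested Rab genes. It sits on vesicles bound for the cell surface and on tight junctions of epithelial cells. Rab13 had 16.2, 17.7 and 17.1 units in ci-Ins2 gapmeR cells, against 10.5, 10.6 and 9.79 in control gapmeR cells. The lowest value after the ci-Ins2 gapmeR was thus well above the highest control value. The log2 fold change was 0.67 (SE 0.063, 95% interval 0.52 to 0.82, adjusted p = 0.0027 from limma). It was the only Rab gene to pass with each library left out in turn, with adjusted p at most 0.0183 from limma.

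Rab29, which works at the Golgi and on lysosomes and recruits the kinase LRRK2, also rose. It had 20.9, 21.6 and 25.2 units in ci-Ins2 gapmeR cells, against 15.9, 17.6 and 16.3 in control gapmeR cells. The groups did not overlap, and replicate 3 was the highest of the ci-Ins2 libraries. The log2 fold change was 0.42 (SE 0.082, 95% interval 0.22 to 0.61, adjusted p = 0.0401 from limma). The call was lost when any 1 of the 6 libraries was left out, with adjusted p of 0.0714 to 0.146 from limma. Such fits made fewer calls over all genes too, 205 to 326 lower and 37 to 75 higher, beside 488 and 141 with all 6 libraries.

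Rab33a, a relative of the Golgi and autophagy gene Rab33b, had 1.65, 1.71 and 2.42 units after the ci-Ins2 gapmeR, against 0.779, 1.03 and 0.811 after the control gapmeR. The groups did not overlap, but the values were close to the minimum for testing, and the control cells had the lowest mean among tested Rab genes. Before scaling every control value was under 1, so Rab33a was tested only through its ci-Ins2 libraries, where it was high. The log2 fold change was 0.64 (SE 0.128, 95% interval 0.33 to 0.94, adjusted p = 0.0430 from limma). It did not pass without any 1 of the 6 libraries, with adjusted p of 0.0779 to 0.155 from limma. Its much more abundant relative Rab33b had 24.9, 24.1 and 24.5 units in ci-Ins2 gapmeR cells, against 24.4, 24.2 and 25.9 in control gapmeR cells, which overlapped.

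Rab2a was the only Rab gene that fell. It works in transport between the endoplasmic reticulum and the Golgi, and in the worm Caenorhabditis elegans its counterpart is needed for the maturation of dense-core vesicles. It had 161, 156 and 157 units in ci-Ins2 gapmeR cells, against 184, 183 and 194 in control gapmeR cells. All ci-Ins2 values lay below all control values. The log2 fold change was −0.24 (SE 0.044, 95% interval −0.35 to −0.14, adjusted p = 0.0301 from limma). The call was lost without any 1 of the 6 libraries, with adjusted p of 0.0658 to 0.122 from limma, and also with no scaling between libraries, with adjusted p = 0.0872 from limma.

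Its close relative Rab2b did not fall with it. Rab2b had 15.3, 16.3 and 17.2 units in ci-Ins2 gapmeR cells, against 12.6, 14.5 and 14.2 in control gapmeR cells. Its log2 fold change of 0.23 (SE 0.074) passed only with the animal as a term, with adjusted p = 0.1499 without it and 0.0359 with it from limma. The groups did not overlap, and the control mean of Rab2b was 13.8 units, beside 187 for Rab2a.

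A further pair passed only with the animal as a term. Rab4a, the Rab of fast recycling from early endosomes, had 36.9, 33.2 and 34.2 units in ci-Ins2 gapmeR cells, against 30.2, 29.9 and 29.2 in control gapmeR cells. Its groups did not overlap, and its log2 fold change was 0.22 (SE 0.056, adjusted p = 0.0914 without the animal term and 0.0350 with it, from limma). Rab34, which positions lysosomes and takes part in building primary cilia, had 51.9, 53.9 and 53.8 units in ci-Ins2 gapmeR cells, against 45.4, 48.4 and 47.9 in control gapmeR cells. These values did not overlap either, and the log2 fold change was 0.17 (SE 0.048, adjusted p = 0.112 without the animal term and 0.0378 with it, from limma). None of Rab2b, Rab4a and Rab34 passed without a library in the fit that has no animal term.

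**Figure D2:**
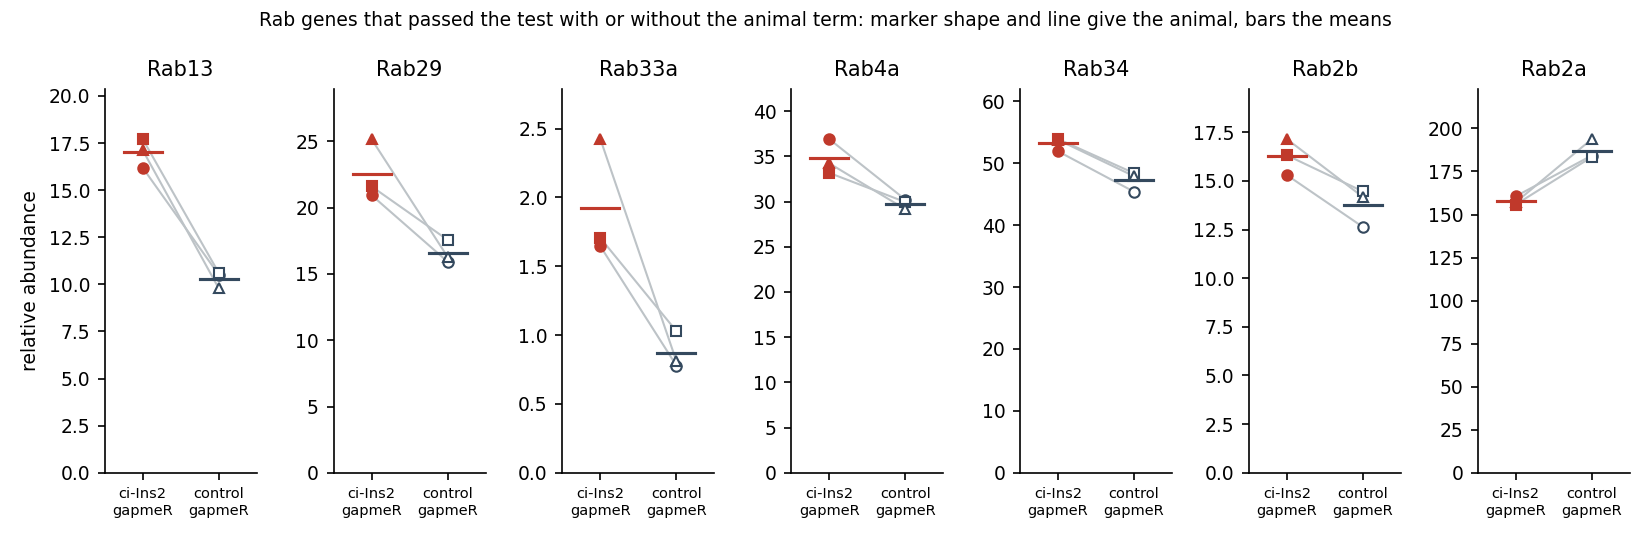
Relative abundance of the 7 Rab genes that passed with or without the animal term, each on its own axis from 0. Filled markers on the left are ci-Ins2 gapmeR libraries and open markers on the right control gapmeR libraries, a marker shape and line join libraries of the same animal, and short bars are group means. In all 3 animals Rab13, Rab29, Rab33a, Rab4a, Rab34 and Rab2b were higher after the ci-Ins2 gapmeR and Rab2a was lower.

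Some genes on the lists of cell type markers differed as well. Of 6 ductal markers 4 were tested, and the keratins Krt19, Krt18 and Krt7 were higher after the ci-Ins2 gapmeR, with log2 fold changes of 0.76, 0.29 and 0.36 (adjusted p = 0.0129, 0.0281 and 0.0452 from limma), while Epcam did not pass. Of the 6 fits with 1 library left out, Krt19 passed in 4, Krt18 in 1 and Krt7 in 0. Without control replicate 3 none of these keratins passed, at adjusted p = 0.0550, 0.120 and 0.159 from limma. The summed level of the 6 was 765 to 838 units in ci-Ins2 gapmeR libraries and 635 to 678 in control gapmeR libraries. Most of this sum came from Krt7, Krt18 and Epcam, with control means of 344, 170 and 137 units. Krt19 had a control mean of 2.17 units, and the ductal markers Sox9 and Cftr were under the minimum. The sum over 9 beta-cell markers was 178669 to 183976 units in ci-Ins2 gapmeR libraries and 184146 to 192054 in control gapmeR libraries. Most of this sum came from Ins1, Ins2 and Iapp, with log2 fold changes of −0.05, −0.06 and −0.12 that did not pass. Without the animal term none of the 9 passed in limma, with 1 lower and 1 higher at an unadjusted p under 0.05. Of 4 tested delta- and PP-cell markers, Rbp4 was higher, with a log2 fold change of 0.54 (adjusted p = 0.0018 from limma). The others, Sst, Hhex and Ppy, did not pass, with log2 fold changes of −0.02, 0.32 and 0.26 (adjusted p = 0.934, 0.467 and 0.532 from limma). None of the 9 tested macrophage and immune markers passed without the animal term in limma (1 lower at an unadjusted p under 0.05), while with it C1qa, C1qb, C1qc and Lyz2 were lower (adjusted p = 0.0069, 0.0359, 0.0286 and 0.0128 from limma). The summed level of the 12 markers of this list was 31.4, 55.5 and 70.0 units in ci-Ins2 gapmeR libraries, against 51.1, 76.1 and 90.4 in control gapmeR libraries. None of the 7 fibroblast and stellate markers passed without the animal term in limma (0 at an unadjusted p under 0.05), while with it Col1a1, Col1a2 and Col3a1 were lower (adjusted p = 0.0095, 0.0120 and 0.0069 from limma). Their sum was 289, 623 and 224 units in ci-Ins2 gapmeR libraries, against 411, 751 and 322 in control gapmeR libraries. For both lists the sums of the groups overlapped, but within each of the 3 animals the sum was lower after the ci-Ins2 gapmeR. Other markers that passed only with the animal term included Slc30a8 and Ucn3 of beta cells, which were higher, and Kdr of endothelial cells, which was lower. The part of these cell types in the changes of Rab13, Rab29, Rab33a and Rab2a was not tested.

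By role, the early secretory Rabs held 1 gene that fell, Rab2a, and 1 that rose, Rab33a, of 10 tested. Each is 10%, beside 3.5% of all genes tested that fell and 1.01% that rose. Rab33a, however, reached the minimum for testing only in its ci-Ins2 gapmeR libraries. The others of this group included Rab1a, Rab6a, Rab33b and Rab18, a Rab of the endoplasmic reticulum and lipid droplets, with log2 fold changes of −0.0015, −0.09, −0.02 and −0.09. Among 7 tested Rabs of exocytic vesicles Rab13 alone passed (14.3% higher, all genes: 1.01%). Rab8a and Rab10, both of vesicles bound for the plasma membrane, had log2 fold changes of −0.0040 (95% interval −0.15 to 0.14) and 0.03 (−0.08 to 0.13). Rab37, found on secretory granules in mast cells, had 8.93, 6.005 and 5.74 units in ci-Ins2 gapmeR cells, against 5.22, 4.08 and 5.54 in control gapmeR cells. The groups of Rab37 did not overlap, but its log2 fold change of 0.39 (SE 0.172) did not pass, with adjusted p = 0.262 from limma.

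Rab15 stood apart from the other members by animal. It had 7.37, 2.502 and 6.65 units in ci-Ins2 gapmeR cells, against 5.85, 1.80 and 6.23 in control gapmeR cells. The libraries of replicate 2 were the lowest in both groups, and within each animal the ci-Ins2 value was the higher. Its log2 fold change of 0.23 had the largest standard error among tested Rab genes, 0.463, with adjusted p = 0.825 without the animal term and 0.0903 with it from limma.

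None of the 12 tested Rabs of endocytosis and recycling passed without the animal term. In that fit an unadjusted p under 0.05 from limma placed 0 lower and 3 higher (all 13927 genes: 1618 lower, 1231 higher). Of these, Rab25, an epithelial relative of Rab11, had 60.8, 62.6 and 64.9 units in ci-Ins2 gapmeR cells, against 53.5, 58.3 and 52.8 in control gapmeR cells. The values did not overlap, yet the log2 fold change of 0.19 (SE 0.056) did not pass, with adjusted p = 0.120 without the animal term and 0.0552 with it from limma. Rab5b had a log2 fold change of 0.12, Rab14 of 0.09, Rab5c of −0.02, Rab11a of −0.02 and Rab11b of −0.07, all short of the threshold.

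Among 8 tested Rabs of late endosomes, lysosomes and related organelles, Rab29 was the 1 gene that passed (12.5% higher, all genes: 1.01%). Rab7a differed by −0.01 on the log2 scale, with a 95% interval of −0.11 to 0.09, and Rab24 by 0.01, with an interval of −0.10 to 0.12. Rab9a and Rab9b, of transport from endosomes back to the Golgi, differed by 0.12 and 0.19 and did not pass. Among Rab23, Rab28, Rab40b and Rab40c, of which Rab23 and Rab28 are known from cilia and the Rab40 proteins from a ubiquitin ligase, none passed with limma, 0 had an unadjusted p under 0.05, and their log2 fold changes were −0.09 to 0.10.

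For 34 of the 41 tested Rab genes the 95% interval of the log2 fold change lay inside ±0.5, and 34 passed neither with nor without the animal term. In 10 Rab genes (24.4%) every ci-Ins2 library lay above every control library, beside 13.0% of all genes tested, and in 4 (9.76%) every ci-Ins2 library lay below, beside 13.9% of all genes. The 10 include Rab33a, which was tested only through its ci-Ins2 libraries. With 3 libraries against 3, an exact permutation test of a single gene cannot go below p = 0.1. The granule Rabs gave no call in the fit without the animal term, where none of the 5 tested Rab3 and Rab27 genes passed, 0 had an unadjusted p under 0.05 and Rab3c differed by −0.21 (adjusted p = 0.247 from limma). Rab3c was lower with the animal as a term, with adjusted p = 0.0338 from limma.

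**Figure D3:**
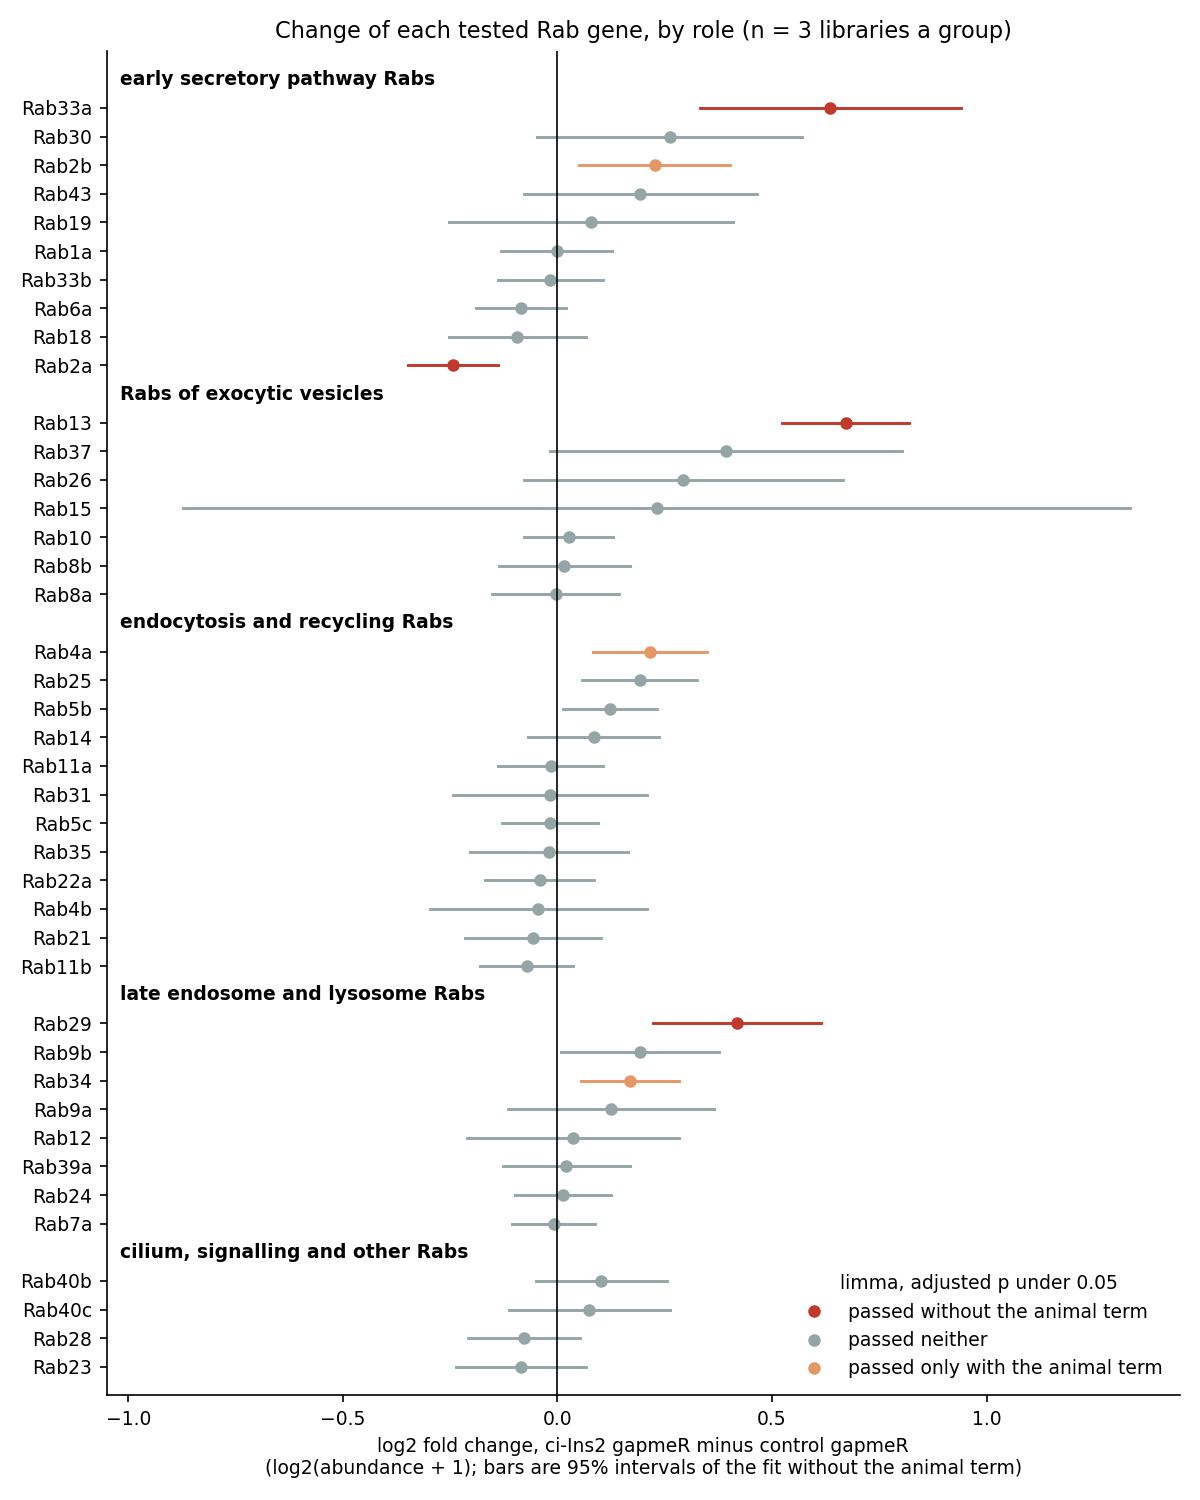
Log2 fold change (ci-Ins2 gapmeR minus control gapmeR) of each of the 41 tested Rab genes by role, with 95% intervals from the fit without the animal term. Rab13 at 0.67, Rab33a at 0.64 and Rab29 at 0.42 lie to the right of 0 and Rab2a at −0.24 to the left, Rab4a, Rab34 and Rab2b passed only with the animal term, and Rab15 has the widest interval.

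Single transcripts were tested in the same way. The 50 genes had 69 transcripts, of which 58 were tested, and 35 genes had only 1 transcript in the table. Of the 58 transcripts, 1 fell (all transcripts tested: 4.23%) and 4 rose (all transcripts: 1.07%). The 4 include the single transcript of Rab33a, which reached the minimum only in ci-Ins2 libraries. In the fit with the animal as a term 1 fell (all transcripts: 10.8%) and 8 rose (all transcripts: 5.99%), and those that rose came from 6 genes. The transcript that fell was the single transcript of Rab2a.

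Rab13 has 2 transcripts in the table, and both rose. ENSRNOT00000022627 had 8.91, 9.38 and 9.23 units in ci-Ins2 gapmeR cells, against 5.52, 5.69 and 5.48 in control gapmeR cells, and ENSRNOT00000092112 had 7.34, 8.38 and 7.93, against 4.98, 4.91 and 4.28 in control gapmeR cells. Their log2 fold changes were 0.632 and 0.635 (adjusted p = 0.00215 and 0.00818 from limma). ENSRNOT00000022627 held 53.8% of the gene's level in ci-Ins2 gapmeR cells and 54.1% in control gapmeR cells, so the mix of Rab13 transcripts was close to the same. Of the 2 transcripts of Rab29, ENSRNOT00000084259 held 76.1% in ci-Ins2 gapmeR cells and 76.2% in control gapmeR cells, and it rose, while the other, ENSRNOT00000073669, passed only with the animal as a term. RSEM shares reads between overlapping transcripts, so the values of transcripts of the same gene are less certain than their sum.

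Promoters were looked at for the members that moved. RefSeq (GRCr8) promoter sequences matched 40 of the 50 members and 4 of the 7 that passed with or without the animal term. The 250 bases before the start of these 4 are shown, with capitals for the GC box, the motif GGGCGG on either strand (CCGCCC on the other), which binds Sp1 family factors and is common in promoters of widely used genes. They are Rab13 at chr2:177972720-177972969, Rab29 at chr13:45859788-45860037, Rab34 at chr10:63581292-63581541 and Rab4a at chr19:68692831-68693080, all on the plus strand.

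Rab13: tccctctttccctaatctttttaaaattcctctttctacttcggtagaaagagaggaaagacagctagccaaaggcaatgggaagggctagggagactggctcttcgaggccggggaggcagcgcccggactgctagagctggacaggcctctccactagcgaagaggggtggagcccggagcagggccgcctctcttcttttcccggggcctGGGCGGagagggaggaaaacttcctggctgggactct

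Rab29: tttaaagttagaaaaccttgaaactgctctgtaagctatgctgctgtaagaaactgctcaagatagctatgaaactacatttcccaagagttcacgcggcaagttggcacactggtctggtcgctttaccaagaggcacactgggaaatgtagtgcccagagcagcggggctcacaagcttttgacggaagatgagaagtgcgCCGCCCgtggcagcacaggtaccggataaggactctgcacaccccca

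Rab34: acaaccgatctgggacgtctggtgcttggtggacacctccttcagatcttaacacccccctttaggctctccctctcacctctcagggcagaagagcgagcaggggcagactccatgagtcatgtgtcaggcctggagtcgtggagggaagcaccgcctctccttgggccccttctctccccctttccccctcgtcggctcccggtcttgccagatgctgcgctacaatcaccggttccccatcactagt

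Rab4a: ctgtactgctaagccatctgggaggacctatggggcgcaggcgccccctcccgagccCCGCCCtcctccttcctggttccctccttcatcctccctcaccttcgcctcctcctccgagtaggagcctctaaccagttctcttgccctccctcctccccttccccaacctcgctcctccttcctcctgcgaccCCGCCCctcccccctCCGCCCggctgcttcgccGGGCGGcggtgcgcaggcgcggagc

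Rab13 and Rab29 each hold 1 GC box, Rab4a holds 4 and Rab34 none. A GC box was found in 31 of the 41 promoters of Rab members (75.6%) and in 30.5% of all 33469 promoters of the same length. The full set was not matched to the Rab genes by gene type, level or base content. The CCAAT box was found in 36.6% of the Rab promoters and 34.0% of all, the palindromic E-box CACGTG in 4.88% and 5.59%, and the cyclic AMP response element TGACGTCA in 2.44% and 1.59%. None of the 4 promoters shown holds a CCAAT box, this E-box or this response element. A match is a run of letters, and binding was not measured.

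The genes that load, recycle, switch and read Rab proteins were counted by lists. Of 127 tested regulators and effectors, 7 fell (5.51%, all genes: 3.5%) and 2 rose (1.57%, all genes: 1.01%). In the fit with the animal as a term 15 fell (11.8%, all genes: 10.3%) and 5 rose (3.94%, all genes: 5.23%). The median log2 fold change over the 127 genes was −0.0013. Fits with 1 library left out called 205 to 326 of all genes lower and 37 to 75 higher, beside 488 and 141 with all 6 libraries.

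Of 7 tested genes of prenylation and GDI recycling, Chm fell (14.3%, all genes: 3.5%). Chm encodes the escort protein that presents new Rab proteins to the prenyltransferase. It had 22.7, 25.3 and 25.1 units in ci-Ins2 gapmeR cells, against 34.0, 29.7 and 35.0 in control gapmeR cells, which did not overlap. The log2 fold change was −0.42 (SE 0.079, adjusted p = 0.0355 from limma), and the call was lost with no scaling and with no filter on low values (adjusted p = 0.0686 and 0.0658). Of the fits without 1 library it passed only the fit without control replicate 2, and adjusted p reached 0.132 in the others, from limma.

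Of 30 tested GEFs, Rab3gap1 and Rin2 fell (6.67%, all genes: 3.5%). Rab3gap1, whose complex with Rab3gap2 acts as a GAP on Rab3 and as a GEF on Rab18, had 44.4, 44.8 and 44.6 units in ci-Ins2 gapmeR cells, against 91.7, 92.7 and 94.0 in control gapmeR cells. This was the largest difference among the 127 genes by adjusted p, with a log2 fold change of −1.04 (SE 0.041, adjusted p = 8.5e-05 from limma), and it passed with each library left out. Rab18 itself had 17.5, 19.2 and 16.7 units in ci-Ins2 gapmeR cells, against 18.5, 19.6 and 19.0 in control gapmeR cells. These values overlapped and did not pass, with adjusted p = 0.486 from limma.

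Rin2, a GEF of Rab5, had 13.1, 13.0 and 11.1 units in ci-Ins2 gapmeR cells, against 18.1, 15.9 and 16.4 in control gapmeR cells. Its log2 fold change was −0.41 (SE 0.084, adjusted p = 0.0451 from limma), and the call was lost without any 1 library, with adjusted p up to 0.140 from limma. It was also lost with no filter, no scaling and no mean-variance trend, with adjusted p = 0.0817, 0.0933 and 0.0534 from limma. Dennd1b, a GEF of Rab35, and Ric1, of the Rab6 exchange complex, were lower only with the animal as a term, with log2 fold changes of −0.43 and −0.22 (adjusted p = 0.0127 and 0.0477 from limma in that fit).

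Of 14 tested subunits of TRAPP, the exchange complexes of Rab1 and Rab11, Trappc9 fell (7.14%, all genes: 3.5%). It had 20.03, 19.4 and 20.3 units in ci-Ins2 gapmeR cells, against 25.0, 26.6 and 25.8 in control gapmeR cells. The groups did not overlap, with a log2 fold change of −0.35 (SE 0.051, adjusted p = 0.0136 from limma), and it passed without ci-Ins2 replicate 3 or control replicate 1, while adjusted p reached 0.0667 without another library. Trappc6b was higher with the animal as a term only, by 0.25 (adjusted p = 0.0190 in that fit, from limma).

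Of 36 tested TBC-domain GAPs, 3 were lower (8.33%, all genes: 3.5%) and 2 higher (5.56%, all genes: 1.01%). Rabgap1l had 7.31, 5.03 and 5.42 units in ci-Ins2 gapmeR cells, against 12.1, 10.8 and 15.1 in control gapmeR cells. Tbc1d5, a GAP of Rab7 that works with retromer, had 6.58, 6.37 and 5.99 units in ci-Ins2 gapmeR cells, against 9.39, 8.54 and 9.25 in control gapmeR cells. Sgsm2, a GAP of Rab32 and Rab38, had 19.8, 19.6 and 20.5 units in ci-Ins2 gapmeR cells, against 24.5, 26.3 and 25.7 in control gapmeR cells. For all 3 genes the groups did not overlap, and the log2 fold changes of Rabgap1l, Tbc1d5 and Sgsm2 were −0.98, −0.46 and −0.34 (adjusted p = 0.0207, 0.0150 and 0.0180 from limma). Without 1 library their adjusted p reached 0.0801, 0.0765 and 0.0846 from limma. Rabgap1l passed without ci-Ins2 replicate 1 or control replicate 2, Tbc1d5 without ci-Ins2 replicate 1 or 2 or control replicate 2, and Sgsm2 without control replicate 1, and no other such fit passed. Rabgap1l also missed with no filter and by its most abundant transcript alone, with adjusted p = 0.0527 and 0.0507 from limma. The proposed targets of Sgsm2, Rab32 and Rab38, were under the minimum in both groups.

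Grtp1, a TBC-domain protein, rose, with 10.8, 10.4 and 10.6 units in ci-Ins2 gapmeR cells, against 6.84, 6.67 and 7.50 in control gapmeR cells. Its log2 fold change was 0.54 (SE 0.065, adjusted p = 0.0071 from limma), and it passed with each library left out. Tbc1d31, known from the base of cilia, had 20.1, 22.6 and 23.4 units in ci-Ins2 gapmeR cells, against 15.6, 15.8 and 17.9 in control gapmeR cells. Its log2 fold change of 0.40 (SE 0.083, adjusted p = 0.0472 from limma) was lost without any 1 library, with adjusted p up to 0.1501 from limma, and also with no filter and with no mean-variance trend, with adjusted p = 0.0817 and 0.0581 from limma. Usp6nl and Tbc1d22a were lower and Tbc1d14 was higher in the fit with the animal as a term only.

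None of the 40 tested effectors passed without the animal term. In that fit an unadjusted p under 0.05 from limma placed 6 lower and 2 higher (all 13927 genes: 1618 lower, 1231 higher). Rab11fip4, Gcc2, Erc1 and Ocrl were lower and Rufy1 was higher with the animal as a term only. Rab11fip4 binds Rab11, Gcc2 is a golgin that binds Rab6, Erc1 binds Rab6 on vesicles, Ocrl is a phosphatase bound by several Rabs, and Rufy1 binds Rab4 and Rab14.

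**Figure D4:**
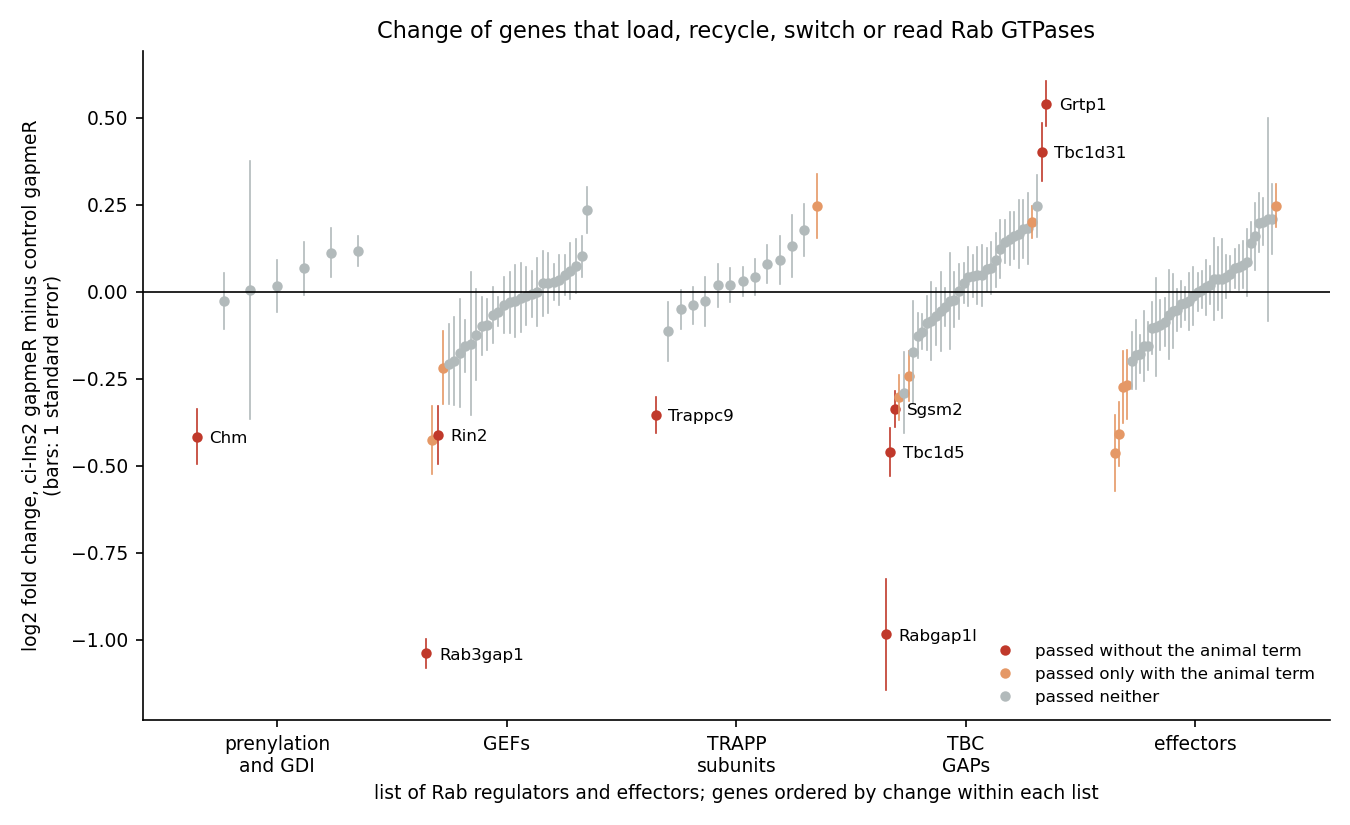
Log2 fold change (ci-Ins2 gapmeR minus control gapmeR) of 127 tested regulators and effectors of Rab proteins in 5 lists, ordered within each list, with bars of 1 standard error. Rab3gap1 at −1.04 and Rabgap1l at −0.98 lie lowest, Grtp1 at 0.54 highest, and no effector passed without the animal term.

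The same genes can also be hosts of circular RNAs, for which the authors' annotation from mouse islets was read. It comes from another study's mice on a normal diet, and its values are the authors' means of normalized junction reads, with no replicate value. Of 15925 circRNAs in the annotation, 27 had a Rab host outside Rab3 and Rab27, 24 of the exon class and 3 of the intron class, from 13 host genes. Of these hosts 11 were among the tested genes in rat.

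In the authors' table circ_00650 of Rab11a was the most abundant of the 27, with a mean of 49.4 normalized junction reads, beside a median of 2.99 over all circRNAs. It was followed by circ_00906 of Rab22a with 32.9, circ_01254 of Rab2a with 28.7 and circ_01553 of Rab6a with 20.6. Rab2a was the only 1 of the 4 Rab genes called in rat that hosted any, and its 2 exon circRNAs share their end, circ_01254 at chr4:8577954-8582493 and circ_02698 at chr4:8572525-8582493 on the plus strand (no source used here names the mouse build). Rab6b, which was under the minimum in rat islet cells, hosted 4 in mouse islets, the most of any of these genes, with means up to 16.4. Species and study both differ there, so the values are only set side by side. Circular forms were not measured in the rat libraries.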

How the data were processed

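The members, gene lists and rule for named genes were chosen with earlier results of these data known. The authors used STAR 2.5.3a for mapping single-end reads of stranded mRNA libraries to rn6 transcripts and RSEM 1.3.0 for their abundances. The deposited values are relative abundances, another unit than counts, that sum to 10000000 per library, 10 times the sum of TPM. No source used here names the unit, and no count test was run. The deposited lists of changed genes and pathways (HISAT2 2.1.0, HTSeq, DESeq2 1.12.4, DAVID) hold the authors' own comparison of the same groups and were not used. The mean of mouse circRNA junction reads is a signal normalized by the authors with DESeq2, and 6 columns of single samples of another study were not used.

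Values were divided by 10 and summed per gene name, kept at 1 or more in 3 libraries, divided by median-of-ratios size factors (0.962 to 1.035) and fitted with limma 3.58.1 in R 4.3.3 on log2(value + 1), with an eBayes trend, and p-values adjusted by Benjamini-Hochberg over 13927 genes or 19074 transcripts. The fit was tested on simulated data. Figures were drawn with matplotlib 3.10.9 (Python 3.11.15, pandas 2.3.3). Named with full values were the members and regulators called in the fit without the animal (and, for members, with it), the 10 highest members, and up to 4 examples a role group by level. Members such as Rab15, Rab25 and Rab37 were named after their values were seen.

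Replicate numbers pair the libraries, since the reporting summary states that groups came from the same animal. Deviations from the group means correlated at 0.462, 0.493 and 0.419 between libraries of the same number and at −0.157 to −0.266 between others. The alternatives were the animal as a block, pseudocounts of 0.1 and 5, no filter or a filter at 5, no scaling, no trend, the most abundant transcript, each library left out, and thresholds of 0.01 and 0.1.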

Additional observations from a re-analysis of the deposited data

How the results depend on the processing

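With the animal as a replicate block, the number of Rab genes higher was 6 in place of 3, regulators and effectors lower 15 in place of 7 and higher 5 in place of 2, and Rab transcripts higher 8 in place of 4. The block lost no call among named Rab members and regulators, and among the members it added Rab2b, Rab4a and Rab34. It also added the regulators, effectors, markers and Rab3c named above as passing only with the animal term. With each library left out in turn, 0 Rab genes were lower and 1 was higher in every such fit, and 1 to 4 regulators and effectors were lower and 1 higher. In such fits the group of 2 is assumed to vary like the other. Over all genes they called 205 to 326 lower and 37 to 75 higher, beside 488 and 141 with all 6 libraries, so lost calls were general. The fit without a scaling or without a trend gave 0 Rab genes lower, and without a trend 1 regulator was higher. With no filter 1 Rab gene was higher, and 4 regulators were lower and 1 higher. At an adjusted p under 0.01, 0 Rab genes were lower and 1 higher, and 1 regulator was lower and 1 higher. At an adjusted p under 0.1, 11 regulators were lower and 4 higher. Of the mouse circRNAs of Rab hosts, 14 had a mean of at least 5. Rab13, Rab3gap1 and Grtp1 kept direction and call in all 14 alternatives. No result of a named gene changed direction. Rab29 missed the threshold with no filter (adjusted p = 0.0731) and no trend (0.0506), Rab33a with no filter (0.0698) and a pseudocount of 5 (0.0536), and Rab2a with no trend (0.0628), all from limma. Rab33a was not tested with a filter at 5. Depth is unknown, so no counting error can be given.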
